A study of Mus musculus with 20 samples.

Results

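Trem2, its signalling adaptor Tyrobp, the lipoprotein gene Apoe and 7 core genes of disease-associated microglia (Lpl, Cst7, Clec7a, Itgax, Spp1, Csf1 and Cd9) were followed across 4 mouse genotypes. They were chosen by gene symbol, with no measured value in the rule but with earlier results of these data known. They are 10 of the 54532 genes in the deposited count table. All 10 passed the filter on low counts and are among the 18336 genes tested. RNA came from a single brain hemisphere per library, with 5 libraries per genotype and 20 in all, and polyadenylated RNA was sequenced. The genotypes were knockout of both Glb1 and Neu3 (DKO), knockout of Glb1 alone (Glb1KO), knockout of Neu3 alone (Neu3KO) and wild type (WT). The Glb1 product is a beta-galactosidase of the lysosome that takes galactose off GM1 ganglioside, and Neu3 codes for a sialidase that removes sialic acid from gangliosides. Age, strain background and how the deletions were made are not given in the sources used here. Each library has its own identifier, but nothing states that the libraries came from separate animals, so the p-values measure the spread between these libraries.

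Microglia are the resident macrophages of the brain. When they meet lipid debris, amyloid or dying cells, part of them shift to a programme known as disease-associated microglia, in which the lipid-binding receptor Trem2 signals through Tyrobp and the kinase Syk. Apoe is a lipid carrier that Trem2 binds, made mostly by astrocytes in healthy brain and also by microglia that have entered the programme. Clec7a, Itgax and Cst7 are textbook markers of the late, Trem2-dependent step of that programme, while Apoe, Lpl, Spp1, Csf1 and Cd9 also have sources in other brain cells.

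Total counts per library ran from 15162311 to 25145806. Glb1 averaged 4.0 ± 1.07 CPM (read counts relative to the TMM-scaled library size) in DKO, 3.38 ± 0.903 CPM in Glb1KO, 20.5 ± 1.34 CPM in Neu3KO and 20.2 ± 1.32 CPM in WT (SD, n = 5 each). Neu3 averaged 2.98 ± 0.826 CPM in DKO, 4.06 ± 0.621 CPM in Glb1KO, 2.86 ± 0.409 CPM in Neu3KO and 3.85 ± 1.22 CPM in WT (SD, n = 5 each), with groups that overlapped. The Glb1 labels were therefore separated by the counts and the Neu3 labels were not, with an adjusted p = 0.197 for Neu3 in DKO against WT and 0.823 in Neu3KO against WT in edgeR's quasi-likelihood test with Benjamini-Hochberg adjustment. The first letter of the library identifier, whose meaning is not given, is E for 2 DKO, 2 Glb1KO, 1 Neu3KO and 5 WT libraries. It is W for 3 DKO and 4 Neu3KO libraries and L for the other 3 of Glb1KO. Tyrobp, Apoe and Itgax lie on the chromosome of Neu3, at 69.4, 80.1 and 28.3 Mb from it. Hindbrain neuron genes summed to between 20.4 and 42.0 CPM in DKO, 13.9 and 31.6 CPM in Glb1KO, 13.9 and 74.9 CPM in Neu3KO and 64.5 and 103 CPM in WT, and their part in the results below was not tested. WT replicate 1 stood apart from the other 4 WT libraries over all genes, with a chi-square per degree of freedom between counts of 21.9 to 29.8, where the other 36 pairs within a genotype were at 3.44 to 14.2. In bulk tissue, more cells of a type and more RNA per cell cannot be told apart.

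Trem2, Cst7, Clec7a and Itgax were called higher than WT in both Glb1KO and DKO, by different amounts. Their promoter windows are printed here because of these calls. Each window holds 300 bases, from 250 before to 50 after the RefSeq start site (GRCm38.p6), and is written 5′ to 3′ on the gene's own strand. Windows were matched for 8 of the 10 genes, and Tyrobp and Lpl were not matched. Both strands were searched for the AP-1 motif TGANTCA, the PU.1 core AGGAAGT, the C/EBP motif TTGCNNAA and the E-box CACGTG that MiT/TFE factors bind, and matches are in capitals.
Trem2, chr17:48346151-48346450, plus strand: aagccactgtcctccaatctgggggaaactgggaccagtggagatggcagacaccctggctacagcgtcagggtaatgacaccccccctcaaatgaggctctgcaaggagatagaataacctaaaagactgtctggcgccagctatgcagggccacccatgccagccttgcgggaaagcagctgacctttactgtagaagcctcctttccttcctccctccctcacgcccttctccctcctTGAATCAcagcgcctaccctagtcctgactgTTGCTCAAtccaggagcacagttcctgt
Cst7, chr2:150570165-150570464, plus strand: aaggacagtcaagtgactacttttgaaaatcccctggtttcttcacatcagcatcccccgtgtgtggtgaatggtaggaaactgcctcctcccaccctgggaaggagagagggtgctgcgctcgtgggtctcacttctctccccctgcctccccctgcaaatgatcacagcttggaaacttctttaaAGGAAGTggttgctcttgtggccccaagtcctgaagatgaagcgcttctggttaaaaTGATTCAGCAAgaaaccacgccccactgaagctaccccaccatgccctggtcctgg
Itgax, chr7:128129300-128129599, plus strand: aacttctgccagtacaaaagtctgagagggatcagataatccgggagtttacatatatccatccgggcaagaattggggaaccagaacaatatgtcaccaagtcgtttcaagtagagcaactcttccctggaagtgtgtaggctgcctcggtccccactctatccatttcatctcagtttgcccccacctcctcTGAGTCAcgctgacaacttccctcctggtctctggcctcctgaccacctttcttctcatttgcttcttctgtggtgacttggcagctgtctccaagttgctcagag
Clec7a, chr6:129472730-129473029, minus strand: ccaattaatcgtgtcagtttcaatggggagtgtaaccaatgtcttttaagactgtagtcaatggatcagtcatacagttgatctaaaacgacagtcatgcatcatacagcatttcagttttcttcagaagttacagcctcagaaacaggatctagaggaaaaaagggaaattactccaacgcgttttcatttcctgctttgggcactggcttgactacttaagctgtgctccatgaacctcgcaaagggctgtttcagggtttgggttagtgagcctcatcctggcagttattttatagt
AP-1 is the dimer of Fos and Jun proteins, PU.1 is the factor that defines the macrophage lineage, and C/EBP factors act in myeloid cells. TGANTCA was present in 3 of the 8 windows, starting 9 bases before the start site of Trem2, 6 before that of Cst7 and 56 before that of Itgax, and it is present in 7.81% of all 32851 mouse windows. TTGCNNAA was present in the windows of Trem2, 23 bases after the start, and Cst7, and in 10.8% of all windows. The Cst7 match lies on the minus strand and shares bases with the AP-1 match, so that they appear as 1 capital run. AGGAAGT was present in Cst7, 63 bases before the start, and in Spp1, 112 before, against 9.35% of all windows. CACGTG was in none of the 8 windows and in 7.15% of all windows. The windows of Clec7a, Apoe, Csf1 and Cd9 held none of these letters. A match describes the letters only.

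Compared with WT, all 10 genes were higher in DKO, 6 of 10 were higher in Glb1KO and none was called in Neu3KO at an adjusted p under 0.05 (edgeR's quasi-likelihood test with Benjamini-Hochberg adjustment over all tested genes). Of all tested genes, 14.0% were called higher in DKO, 1.75% in Glb1KO and 0% in Neu3KO, and 15.1%, 2.21% and 0% were called lower. The median log2 fold change of the 10 genes over WT was 2.17 in DKO, 0.93 in Glb1KO and 0.07 in Neu3KO, where the medians of all tested genes were -0.00323, 0.00205 and -0.000177. Every DKO library lay above every WT library in 10 of 10 genes (9.28% of all tested genes), and every Glb1KO library did in 7 of 10 (2.60%), the 6 called and Apoe. Glb1KO was wholly above Neu3KO in 5 of 10 (1.85%). These comparisons share the 5 WT libraries. The genes fell into a graded set (Trem2, Tyrobp, Cst7, Clec7a and Itgax), which passed the test in Glb1KO and was higher again in DKO, a set called over WT in DKO but not in Glb1KO (Apoe, Spp1, Csf1 and Cd9), and Lpl, with a small difference in both. This grouping was made after the values were seen. Without WT replicate 1, 10 genes were called in DKO over WT and 5 in Glb1KO over WT. Lpl, at 0.37 in Glb1KO, was not called (edgeR adjusted p = 0.0505). In that fit 26.1% and 3.2% of all tested genes were called in either direction. In DKO that gave log2 fold changes of 2.88 for Trem2, 3.28 for Tyrobp, 6.57 for Cst7, 6.89 for Clec7a, 5.98 for Itgax and 1.23 for Apoe, and of 1.07 for Spp1, 0.84 for Csf1, 1.41 for Cd9 and 0.47 for Lpl. In Glb1KO it gave 1.52 for Trem2, 1.58 for Tyrobp, 3.94 for Cst7, 4.14 for Clec7a, 3.78 for Itgax and 0.19 for Apoe.

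**Figure D1:**
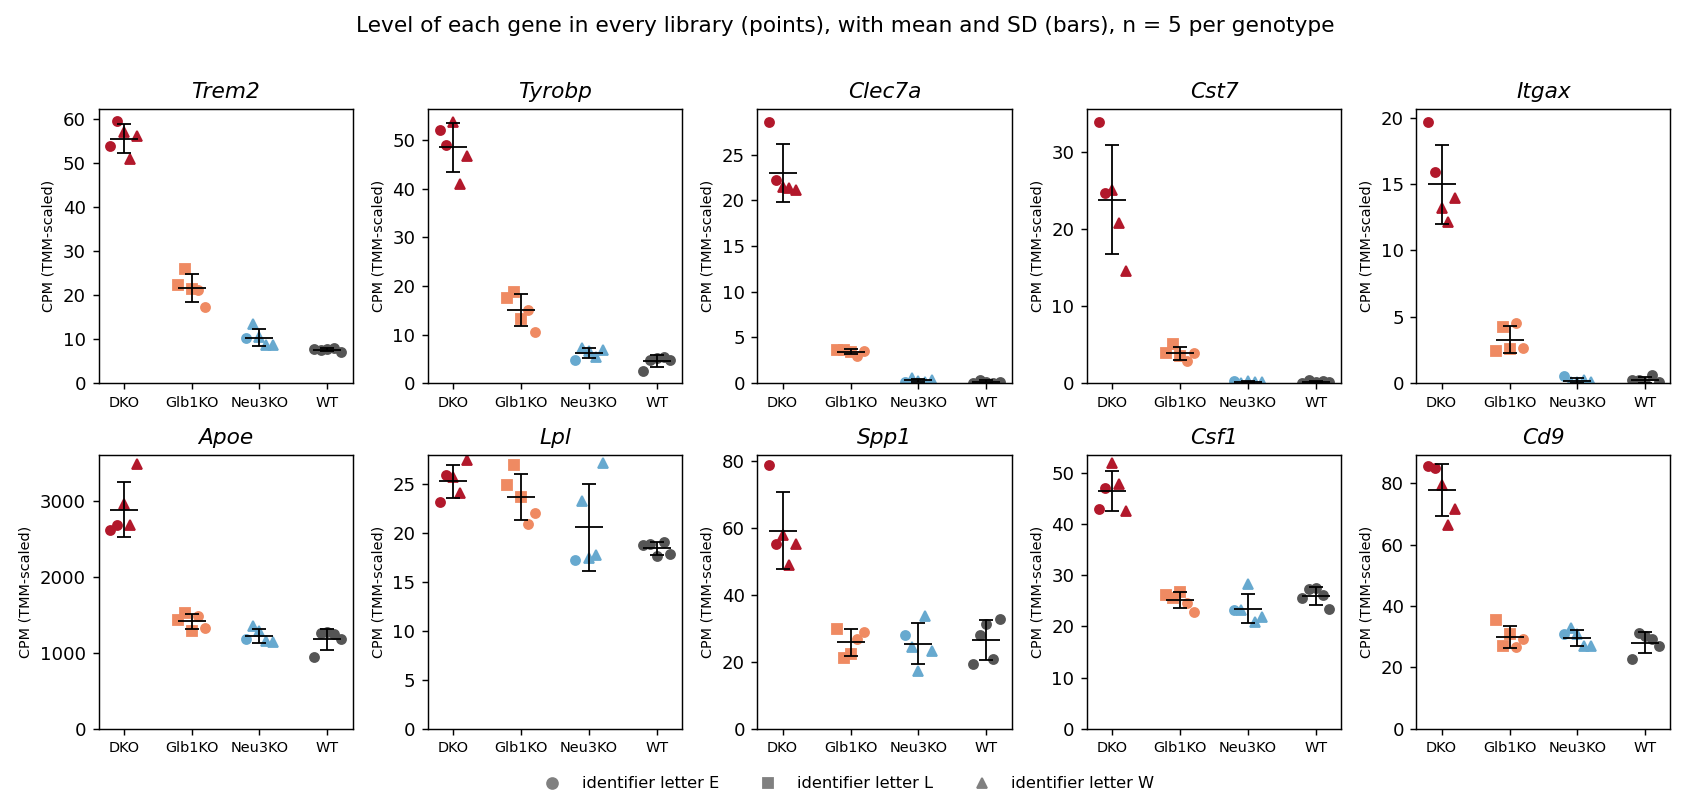
Level of each gene in every library, in TMM-scaled CPM on axes that start at 0, for DKO, Glb1KO, Neu3KO and WT (points are libraries, shaped by identifier letter; bars are the mean and SD, n = 5). Trem2 lay between 50.9 and 59.6 CPM in DKO, 17.2 and 25.8 CPM in Glb1KO, 8.71 and 13.4 CPM in Neu3KO and 7.02 and 7.90 CPM in WT, while Csf1 and Cd9 were set apart in DKO alone.

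Trem2 (ENSMUSG00000023992, GRCm38 chr17:48346401-48354147, plus strand), the receptor itself, was at 53.7, 59.6, 57.1, 50.9 and 56.1 CPM in the DKO libraries, replicates 1 to 5, and at 22.3, 25.8, 21.4, 21.1 and 17.2 CPM in Glb1KO. It was at 10.3, 13.4, 10.6, 8.75 and 8.71 CPM in Neu3KO and at 7.79, 7.62, 7.68, 7.90 and 7.02 CPM in WT. The 4 genotypes were ordered without any overlap: the lowest library of each lay above the highest library of the next. Over WT, Trem2 was raised 7.29-fold in DKO (log2 2.87, SE 0.10, adjusted p = 1.64e-21) and 2.84-fold in Glb1KO (log2 1.5, SE 0.11, adjusted p = 1.69e-12) in edgeR's quasi-likelihood test with Benjamini-Hochberg adjustment. Neu3KO stood at a log2 difference of 0.45 (SE 0.11) from WT and did not pass that test after Benjamini-Hochberg adjustment (adjusted p = 0.56; unadjusted p = 0.000245). Trem2 was the only one of the 10 genes whose Neu3KO libraries were all above WT, a pattern found in 0.524% of all tested genes. When genes with few reads were left unfiltered, edgeR's adjusted p for Trem2 in Neu3KO was 0.0225 at a log2 difference of 0.46.

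Tyrobp (ENSMUSG00000030579, chr7:30413760-30417585, plus strand) codes for the membrane adaptor, also called DAP12, whose ITAM motif carries the signal of Trem2 into the cell. Its level was 52.1, 48.9, 53.8, 41.1 and 46.7 CPM in DKO and 17.6, 18.7, 13.2, 15.1 and 10.6 CPM in Glb1KO. In Neu3KO it was 4.77, 7.31, 6.60, 5.36 and 6.87 CPM, and in WT 2.53, 4.79, 5.18, 5.35 and 4.82 CPM. Every DKO library lay above every Glb1KO library, and every Glb1KO library above all Neu3KO and WT libraries, while Neu3KO and WT overlapped. WT replicate 1 was the lowest of all libraries. Tyrobp was raised 10.8-fold in DKO over WT (log2 3.43, SE 0.16, adjusted p = 1.55e-14) and by a log2 of 1.74 (SE 0.17, adjusted p = 1.04e-07) in Glb1KO in edgeR's quasi-likelihood test with Benjamini-Hochberg adjustment. Between the receptor and its adaptor, the root mean square difference in log2 CPM less the WT mean was 0.40 over the 20 libraries. Other genes lay closer to each, such as C1qc to Trem2 (0.21) and Mpeg1 to Tyrobp (0.31).

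The late-step markers Clec7a, Cst7 and Itgax were nearly at 0 in WT. Clec7a (ENSMUSG00000079293, chr6:129461591-129472779, minus strand), the dectin-1 receptor that signals through Syk and Card9, is given the biotype of a polymorphic pseudogene in the deposited table. It was at 28.5, 22.2, 21.4, 21.4 and 21.1 CPM in DKO and at 3.62, 3.60, 3.41, 2.95 and 3.51 CPM in Glb1KO. Neu3KO libraries held 0.160, 0.577, 0.177, 0.136 and 0.382 CPM, and WT libraries 0, 0.381, 0.119, 0.0608 and 0.170 CPM. Summed over libraries, these values rest on 2037 reads in DKO, 293 in Glb1KO, 27 in Neu3KO and 13 in WT. DKO and Glb1KO did not overlap each other or the remaining genotypes. The log2 fold change over WT was 7.22 (SE 0.27, adjusted p = 3.74e-21) in DKO and 4.47 (SE 0.32, adjusted p = 2.88e-12) in Glb1KO in edgeR's quasi-likelihood test with Benjamini-Hochberg adjustment. Because WT had so few reads, leaving out WT replicate 2 moved these to 7.95 and 5.21.

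Cst7 (ENSMUSG00000068129, chr2:150570415-150578944, plus strand) codes for cystatin F, an inhibitor of lysosomal cysteine proteases. DKO libraries had 33.9, 24.7, 25.1, 20.8 and 14.6 CPM, and Glb1KO libraries 3.97, 5.10, 3.46, 2.89 and 3.89 CPM. Neu3KO libraries had 0.281, 0, 0.295, 0.136 and 0.191 CPM, and WT libraries 0, 0.381, 0.179, 0.243 and 0.170 CPM. The reads behind these summed to 2109 in DKO, 330 in Glb1KO, 17 in Neu3KO and 17 in WT. DKO had the widest spread of the 10 genes relative to its mean, yet no DKO library reached down to Glb1KO. Cst7 was raised by a log2 of 6.90 (SE 0.33, adjusted p = 1.34e-14) in DKO and 4.28 (SE 0.39, adjusted p = 2.80e-08) in Glb1KO over WT in edgeR's quasi-likelihood test with Benjamini-Hochberg adjustment.

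Itgax (ENSMUSG00000030789, chr7:128129547-128150657, plus strand) codes for CD11c, the integrin alpha chain that pairs with the beta chain Itgb2. It was at 19.7, 15.9, 13.2, 12.1 and 14.0 CPM in DKO and at 2.39, 4.26, 2.59, 4.55 and 2.62 CPM in Glb1KO. It was at 0.521, 0.0962, 0.0590, 0.204 and 0.0636 CPM in Neu3KO and at 0.211, 0.218, 0, 0.608 and 0.113 CPM in WT. The sums were 1329 reads in DKO, 277 in Glb1KO, 20 in Neu3KO and 20 in WT, and again DKO, Glb1KO and the remaining genotypes did not overlap. Itgax was raised by a log2 of 6.0 (SE 0.37, adjusted p = 1.33e-12) in DKO and 3.81 (SE 0.41, adjusted p = 4.23e-07) in Glb1KO over WT in edgeR's quasi-likelihood test with Benjamini-Hochberg adjustment. Without WT replicate 4, the highest WT library, these were 6.69 and 4.49.

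Apoe (ENSMUSG00000002985, chr7:19696109-19699188, minus strand) was the most abundant of the 10 genes per length, at 1342 ± 166 FPKM in DKO, 655 FPKM in Glb1KO, 568 FPKM in Neu3KO and 546 ± 63.5 FPKM in WT (mean, with the SD for DKO and WT, n = 5 each; the authors' deposited FPKM). In CPM, DKO libraries were at 2624, 2683, 2962, 2689 and 3485, and Glb1KO libraries at 1435, 1519, 1293, 1483 and 1332. Neu3KO libraries were at 1186, 1350, 1289, 1154 and 1141 CPM, and WT libraries at 942, 1257, 1269, 1244 and 1178 CPM. DKO stood apart from all other genotypes, Glb1KO was above WT without overlap by a narrow margin, and Neu3KO overlapped both Glb1KO and WT. Apoe was raised 2.45-fold in DKO over WT (log2 1.29, SE 0.08, adjusted p = 2.08e-11) in edgeR's quasi-likelihood test with Benjamini-Hochberg adjustment. The difference of Glb1KO from WT was a log2 of 0.26 (SE 0.08) with an edgeR adjusted p = 0.0782, and DESeq2 put it past the threshold (adjusted p = 0.0258).

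Lpl (ENSMUSG00000015568, chr8:68880491-68907448, plus strand), the lipase that releases fatty acids from triglyceride-rich lipoproteins, differed least. It was at 23.2, 25.9, 25.7, 24.1 and 27.5 CPM in DKO and at 24.9, 26.9, 23.7, 21.0 and 22 CPM in Glb1KO. It was at 17.3, 23.3, 17.5, 17.8 and 27.2 CPM in Neu3KO and at 18.8, 18.8, 17.6, 19.1 and 17.9 CPM in WT. DKO and Glb1KO overlapped in part and both lay above WT, while Neu3KO spread across nearly the whole range. Lpl was raised 1.37-fold in DKO (log2 0.46, SE 0.10, adjusted p = 0.00068) and by a log2 of 0.36 (SE 0.10, adjusted p = 0.0319) in Glb1KO over WT in edgeR's quasi-likelihood test with Benjamini-Hochberg adjustment. Among libraries with letter E the Glb1KO difference was 0.22 and its call was lost (edgeR adjusted p = 0.509). The call was also lost on leaving out Glb1KO replicate 1, 2 or 3 (0.34, 0.32 and 0.36; edgeR adjusted p = 0.0862, 0.121 and 0.0629) or WT replicate 1, 3 or 5 (0.37, 0.35 and 0.36; edgeR adjusted p = 0.0505, 0.0795 and 0.0718).

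Spp1 (ENSMUSG00000029304, chr5:104435118-104441050, plus strand) codes for osteopontin, a secreted ligand of Cd44 and of integrins. It was at 78.9, 55.3, 58.0, 48.9 and 55.3 CPM in DKO and at 29.8, 21.0, 22.4, 26.7 and 28.9 CPM in Glb1KO. Neu3KO libraries had 28.1, 24.5, 17.2, 33.8 and 23.3 CPM, and WT libraries 19.3, 28.1, 31.2, 21.0 and 32.7 CPM. DKO was above all others, and Glb1KO, Neu3KO and WT covered the same range. The DKO rise over WT was 2.24-fold (log2 1.16, SE 0.18, adjusted p = 9.94e-05), and Glb1KO differed from WT by -0.04 (SE 0.19, adjusted p = 0.951), in edgeR's quasi-likelihood test with Benjamini-Hochberg adjustment.

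Csf1 (ENSMUSG00000014599, chr3:107741048-107760469, minus strand), the growth factor that keeps microglia alive through Csf1r, was at 42.9, 47.0, 52.0, 47.9 and 42.6 CPM in DKO and at 26.2, 25.5, 26.7, 24.6 and 22.8 CPM in Glb1KO. It was at 23.1, 23.1, 28.2, 20.9 and 21.8 CPM in Neu3KO and at 25.5, 27.4, 27.6, 26.2 and 23.3 CPM in WT. Only DKO stood apart among the 4 genotypes. Csf1 was raised 1.79-fold in DKO over WT (log2 0.84, SE 0.08, adjusted p = 2.21e-10), and Glb1KO differed from WT by -0.05 (SE 0.08, adjusted p = 0.848), in edgeR's quasi-likelihood test with Benjamini-Hochberg adjustment.

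Cd9 (ENSMUSG00000030342, chr6:125460266-125494791, minus strand), a tetraspanin of the cell surface, was at 85.7, 85.1, 79.5, 66.5 and 71.5 CPM in DKO and at 35.5, 26.9, 30.7, 26.7 and 29.2 CPM in Glb1KO. Neu3KO libraries were at 30.9, 32.7, 30.9, 26.8 and 27.0 CPM, and WT libraries at 22.5, 31.0, 30.2, 29.2 and 26.9 CPM. The lowest DKO library was above every library of the other genotypes, which overlapped one another. Cd9 was raised 2.78-fold in DKO over WT (log2 1.47, SE 0.09, adjusted p = 5.54e-15), and Glb1KO differed from WT by 0.09 (SE 0.09, adjusted p = 0.675), in edgeR's quasi-likelihood test with Benjamini-Hochberg adjustment. The overlapping opposite-strand genes Gm28809 and Gm26728 were assigned 69 and 63 reads over all libraries, against 14710 for Cd9, and their share in the Cd9 counts cannot be told apart.

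**Figure D2:**
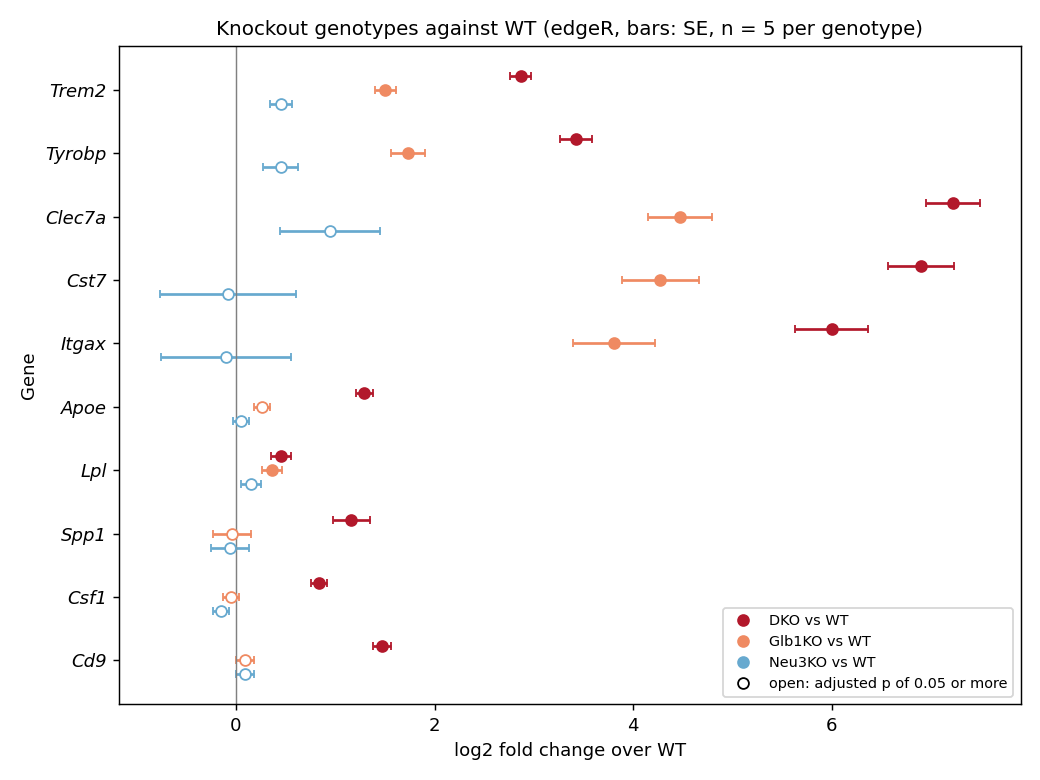
Log2 fold change over WT (points) with its SE (bars) from edgeR for DKO, Glb1KO and Neu3KO, n = 5 libraries per genotype, with open points where the adjusted p was 0.05 or more. Clec7a (7.22), Cst7 (6.90) and Itgax (6.0) lay farthest right in DKO, and Spp1 (-0.04), Csf1 (-0.05) and Cd9 (0.09) lay near 0 in Glb1KO.

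Per length, using the authors' deposited FPKM, the order of the genes differed between genotypes. In DKO the means were 1342 FPKM for Apoe, 72.3 for Tyrobp, 37.7 for Cd9, 35.7 for Spp1, 24.0 for Cst7, 11.1 for Trem2, 8.75 for Csf1, 8.64 for Clec7a, 3.10 for Itgax and 2.40 for Lpl. In WT they were 546 FPKM for Apoe, 15.9 for Spp1, 13.6 for Cd9, 6.73 for Tyrobp, 4.88 for Csf1, 1.74 for Lpl, 1.52 for Trem2, 0.196 for Cst7, 0.0550 for Clec7a and 0.0474 for Itgax. Tyrobp was thus the second most abundant of the 10 in DKO, where its lowest library (61.1 FPKM) was above the highest of Cd9 (41.8 FPKM), and it ranked below Spp1 and Cd9 in WT. Cst7 moved from the lowest 3 in WT to the fifth place in DKO, with libraries from 14.7 to 34.2 FPKM there.

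Glb1KO reached different shares of the DKO level above WT. Measured in CPM against the group means, Glb1KO libraries reached 29.2% of the DKO rise for Trem2 (from 20% to 38.1%), 23.9% for Tyrobp (13.8% to 32.1%), 20.7% for Itgax (14.7% to 29.3%), 15.5% for Cst7 (11.4% to 20.7%) and 14.4% for Clec7a (12.3% to 15.3%). For Apoe the share was 13.7% (6.72% to 19.9%), and for Lpl it was 77.0% with libraries from 37.0% to 124%. Cd9, Spp1 and Csf1 had shares of 3.73%, -2.12% and -4.18%, with libraries on both sides of 0. The shares are descriptions and were not tested against each other.

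Set against Glb1KO, DKO shows what the added Neu3 knockout went with when Glb1 was already lost. In DKO 9 of 10 genes were higher than in Glb1KO, against 8.41% of all tested genes, with a median log2 fold change of 1.37. Clec7a rose by 2.74 (SE 0.17, adjusted p = 2.15e-14), Cst7 by 2.62 (SE 0.22, adjusted p = 1.68e-09) and Itgax by 2.19 (SE 0.25, adjusted p = 4.68e-07) on the log2 scale in edgeR's quasi-likelihood test with Benjamini-Hochberg adjustment. Tyrobp rose by 1.69, Trem2 by 1.36, Cd9 by 1.38, Spp1 by 1.2, Apoe by 1.03 and Csf1 by 0.89. These 9 genes had every DKO library above every Glb1KO library, as did 6.78% of all tested genes. Lpl differed by 0.09 (SE 0.10) and was not called (edgeR adjusted p = 0.603).

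Without the Glb1 knockout, the Neu3 knockout went with no difference that edgeR called among the filtered genes. In Neu3KO against WT, edgeR called 0 of the 10 genes and 0 of all tested genes, DESeq2 called 0 and 2, and edgeR without the filter on low counts called 1, Trem2, and 26. At an unadjusted p under 0.05, edgeR had 2 of the 10 genes, Trem2 and Tyrobp (both 0.45), and 1105 of 18336 genes. Clec7a was at a log2 difference of 0.94 (SE 0.50, edgeR adjusted p = 0.847) on 27 reads in Neu3KO against 13 in WT. It ran from 0.48 (without Neu3KO replicate 2) to 1.68 (without WT replicate 2) when single libraries were left out, and it was 0.12 among libraries with letter E. Neu3KO libraries with letter E numbered 1, so the letters left little of this comparison within a letter. A p above the threshold does not show that Neu3KO and WT were alike.

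The difference between these differences, that is DKO over Glb1KO less Neu3KO over WT, was tested directly as an interaction. It was positive and called for 7 of 10 genes, against 3.96% of all tested genes called higher and 2.88% called lower. The log2 interaction was 1.29 (SE 0.13, adjusted p = 4.88e-09) for Cd9, 1.03 (SE 0.11, adjusted p = 3.59e-08) for Csf1, 0.98 (SE 0.12, adjusted p = 4.17e-06) for Apoe and 0.91 (SE 0.14, adjusted p = 4.82e-05) for Trem2 in edgeR's quasi-likelihood test with Benjamini-Hochberg adjustment. It was 1.24 (SE 0.23, adjusted p = 0.000999) for Tyrobp, 1.26 (SE 0.26, adjusted p = 0.00565) for Spp1 and 2.70 (SE 0.77, adjusted p = 0.0321) for Cst7 in the same edgeR test. Itgax (2.29, SE 0.73) and Clec7a (1.80, SE 0.61) missed the threshold in edgeR (adjusted p = 0.0589 and 0.0729), but passed it with DESeq2 (2.31 and 1.77, adjusted p = 0.0012 and 0.014) and in edgeR without the filter on low counts (adjusted p = 0.000556 and 0.0328), so that each of these alternatives called 9 of 10 genes. Other edgeR fits called fewer, 6 of 10 with the identifier letter as a term and 3 of 10 with a fold minimum of 1.5. Of all tested genes, 6.06% and 0.72% were called in either direction in those fits. That share was 3.98% of 36698 genes with DESeq2 and 4.01% of 36698 genes without the filter. Lpl was at -0.06 in the main fit (edgeR adjusted p = 0.874). The low reads of Cst7, Itgax and Clec7a in WT and Neu3KO make their interaction rest on few counts. The Cst7 call was lost without WT replicate 2, 3, 4 or 5 (edgeR adjusted p = 0.156, 0.0624, 0.0827 and 0.0634) and without Neu3KO replicate 4 or 5 (0.0564 and 0.057). Itgax passed without Glb1KO replicate 4, Neu3KO replicate 1 or WT replicate 3 (edgeR adjusted p = 0.0428, 0.00494 and 0.0163), and Clec7a without Neu3KO replicate 2 or WT replicate 1 (0.0216 and 0.0161). Over all libraries left out in turn, the interaction ran from 1.61 (without WT replicate 4) to 3.28 (without Neu3KO replicate 1) for Itgax, with an edgeR adjusted p of up to 0.296. For Clec7a it ran from 1.07 (without WT replicate 2) to 2.27 (without Neu3KO replicate 2), with an edgeR adjusted p of up to 0.511.

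**Figure D3:**
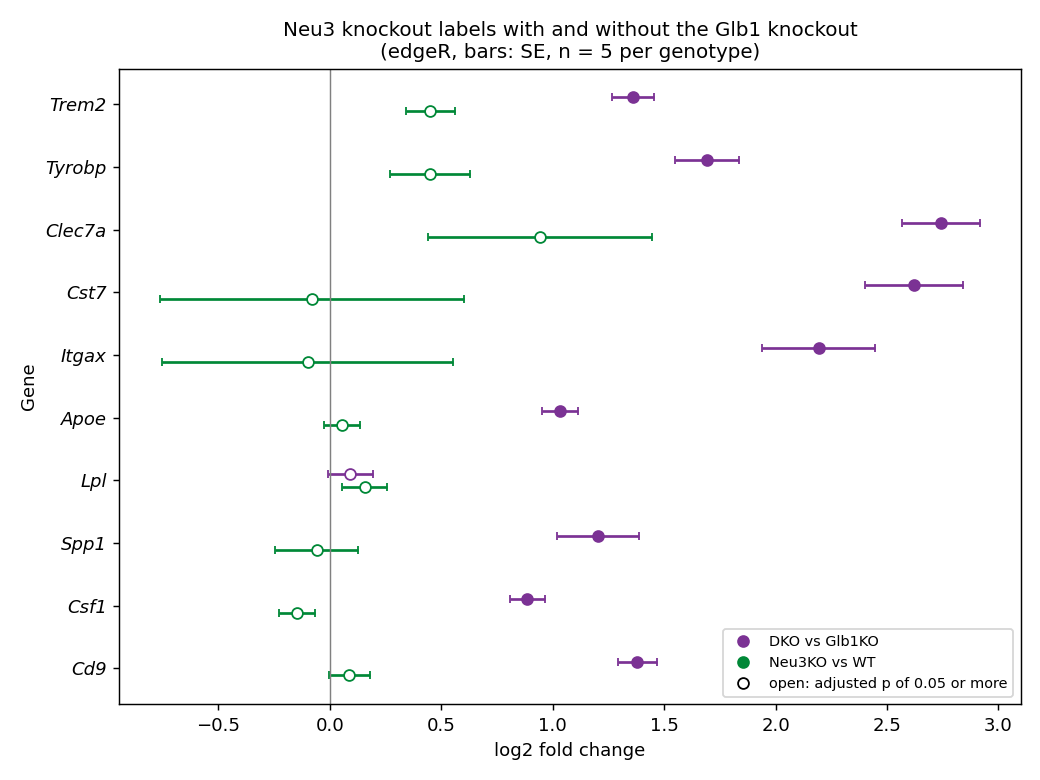
Log2 fold change (points) with its SE (bars) from edgeR for DKO over Glb1KO and for Neu3KO over WT, n = 5 libraries per genotype, with open points where the adjusted p was 0.05 or more. DKO over Glb1KO was called for all genes but Lpl, with values up to 2.74, while none of the 10 was called in Neu3KO over WT by edgeR.

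Against Neu3KO, DKO was higher in all 10 genes, where 12.3% of all tested genes were called higher, with a median log2 fold change of 1.90. Cst7 stood at 6.98, Clec7a at 6.27, Itgax at 6.10, Tyrobp at 2.98 and Trem2 at 2.42. Cd9 stood at 1.39, Apoe at 1.24, Spp1 at 1.22, Csf1 at 0.99 and Lpl at 0.30. All but Lpl had every DKO library above every Neu3KO library, as did 8.43% of all tested genes. Among libraries with letter W (3 DKO and 4 Neu3KO) 9 of the 10 were called, against 20.8% of all genes tested there in either direction, with Lpl at 0.28 (edgeR adjusted p = 0.165). Among libraries with letter E (2 DKO and 1 Neu3KO) 8 of the 10 were called, against 4.39% of all genes, with Lpl at 0.51 and Spp1 at 1.26 not called (edgeR adjusted p = 0.0562 and 0.102). The Lpl call was also lost without DKO replicate 5 (0.27, edgeR adjusted p = 0.0675) or Neu3KO replicate 1, 3 or 4 (0.24, 0.25 and 0.25; edgeR adjusted p = 0.101, 0.0813 and 0.0803). Without Neu3KO replicate 1, Itgax moved to 7.09.

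The letters of the library identifiers touch every comparison with WT, whose libraries all have the letter E. Among libraries with E alone, DKO (2 libraries) was higher than WT in all 10 genes, with log2 fold changes from 0.42 to 7.38, and higher than Glb1KO (2 libraries) in 9 of 10, where 12.9% and 4.48% of all genes tested there were called in either direction. Trem2 was at 2.91 over WT in DKO and 1.33 in Glb1KO there, Clec7a at 7.38 and 4.39, and Apoe at 1.18 and 0.26. With the letter as a term in the fit, 10 of 10 genes were called in DKO over WT, 5 in Glb1KO over WT and 9 in DKO over Glb1KO, against 18.3%, 1.72% and 6.56% of all tested genes called in either direction. The 5 in Glb1KO were the graded set.

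Most genes that mark microglia as such were also higher in DKO. The summed level of 10 identity genes (Csf1r, Cx3cr1, Itgam, Spi1, Irf8, Sall1, Gpr34, P2ry12, P2ry13 and Tmem119) ran from 270 to 358 CPM in DKO, 215 to 240 CPM in Glb1KO, 203 to 241 CPM in Neu3KO and 187 to 220 CPM in WT. Of them 7 of 10 were called higher in DKO over WT, with a median log2 fold change of 0.73, and Irf8 was at 1.60, P2ry13 and Gpr34 at 1.29, Cx3cr1 at 0.72 and Csf1r at 0.63. None was called lower and 3 were not called. The reads of each of the 10 studied genes were therefore also divided by the reads of these identity genes in the same library, a ratio that does not depend on library scaling. Most of these identity genes are also on the list of homeostatic microglia genes. A change of their RNA within microglia would move the ratio as well, and this was not tested.

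Against this microglial sum, 8 of 10 genes were still higher in DKO than in WT, and 6 in Glb1KO. Each had an exact two-sided permutation p = 0.00794, the smallest that 5 against 5 libraries can give, and an adjusted p = 0.0132 over 50 such tests. The ratio was computed for the 10 genes alone, so its counts have no share over all tested genes beside them. Trem2 reads came to between 15.7% and 18.9% of the identity reads in DKO, 7.61% and 11.4% in Glb1KO, 3.62% and 5.91% in Neu3KO and 3.19% and 4.17% in WT. The log2 ratio of Trem2 was higher by 2.26 in DKO and by 1.38 in Glb1KO than in WT. Tyrobp was higher by 2.85 in DKO and 1.63 in Glb1KO, Clec7a by 6.92 and 4.69, Cst7 by 6.52 and 4.43, and Itgax by 5.81 and 4.09. With a zero count in 1 WT library and 0.5 reads added to each count, leaving out WT replicate 1 moved the Cst7 values to 5.90 and 3.81, and leaving out WT replicate 3 moved those of Itgax to 5.17 and 3.45.

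The ratios of the remaining genes differed less. Apoe per identity read was higher by 0.69 in DKO and 0.16 in Glb1KO than in WT, and Cd9 and Spp1 were higher by 0.87 and 0.57 in DKO, all at the same exact permutation p = 0.00794. Lpl (-0.15, exact permutation p = 0.175) and Csf1 (0.23, exact permutation p = 0.119) did not differ beyond the spread in DKO against WT. DKO was above Glb1KO in the ratio of 9 genes, and Lpl alone was below it (-0.40, exact permutation p = 0.0159, adjusted p = 0.0241). The homeostatic microglia list, which shares Csf1r, Cx3cr1, Sall1, Gpr34, P2ry12, P2ry13 and Tmem119 with the identity genes, was used as another divisor. It summed to 849 to 923 CPM in WT, where the identity genes summed to 187 to 220 CPM. Its genes of highest CPM were Mef2c and Mef2a, and the part of microglia in this larger sum was not tested. With this list as the divisor, Csf1 was higher in DKO than in WT (0.42, exact permutation test, adjusted p = 0.0124). Lpl in DKO no longer differed from Glb1KO (-0.17, exact permutation test, adjusted p = 0.136). With that divisor Apoe in Glb1KO did not pass against WT (0.12, exact permutation test, adjusted p = 0.234), Lpl in Glb1KO did (0.21, adjusted p = 0.0454), and Csf1 was lower than in WT in Glb1KO (-0.20, adjusted p = 0.0241) and in Neu3KO (-0.28, adjusted p = 0.035), all in the exact permutation test. Against the identity genes, no gene passed this test in Neu3KO over WT, where Tyrobp was at 0.40 (exact permutation p = 0.0397, adjusted p = 0.0584) and Trem2 at 0.35 (exact permutation p = 0.0556, adjusted p = 0.0772). Csf1 passed without Neu3KO replicate 3 in Neu3KO over WT (-0.30) and without WT replicate 5 in Glb1KO over WT (-0.21), and Lpl passed without Glb1KO replicate 4 in Glb1KO over WT (0.31). Leaving out Neu3KO replicate 5 put Trem2 at 0.44 and leaving out WT replicate 4 put Tyrobp at 0.47, each with an adjusted p = 0.0476 in the exact permutation test.

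**Figure D4:**
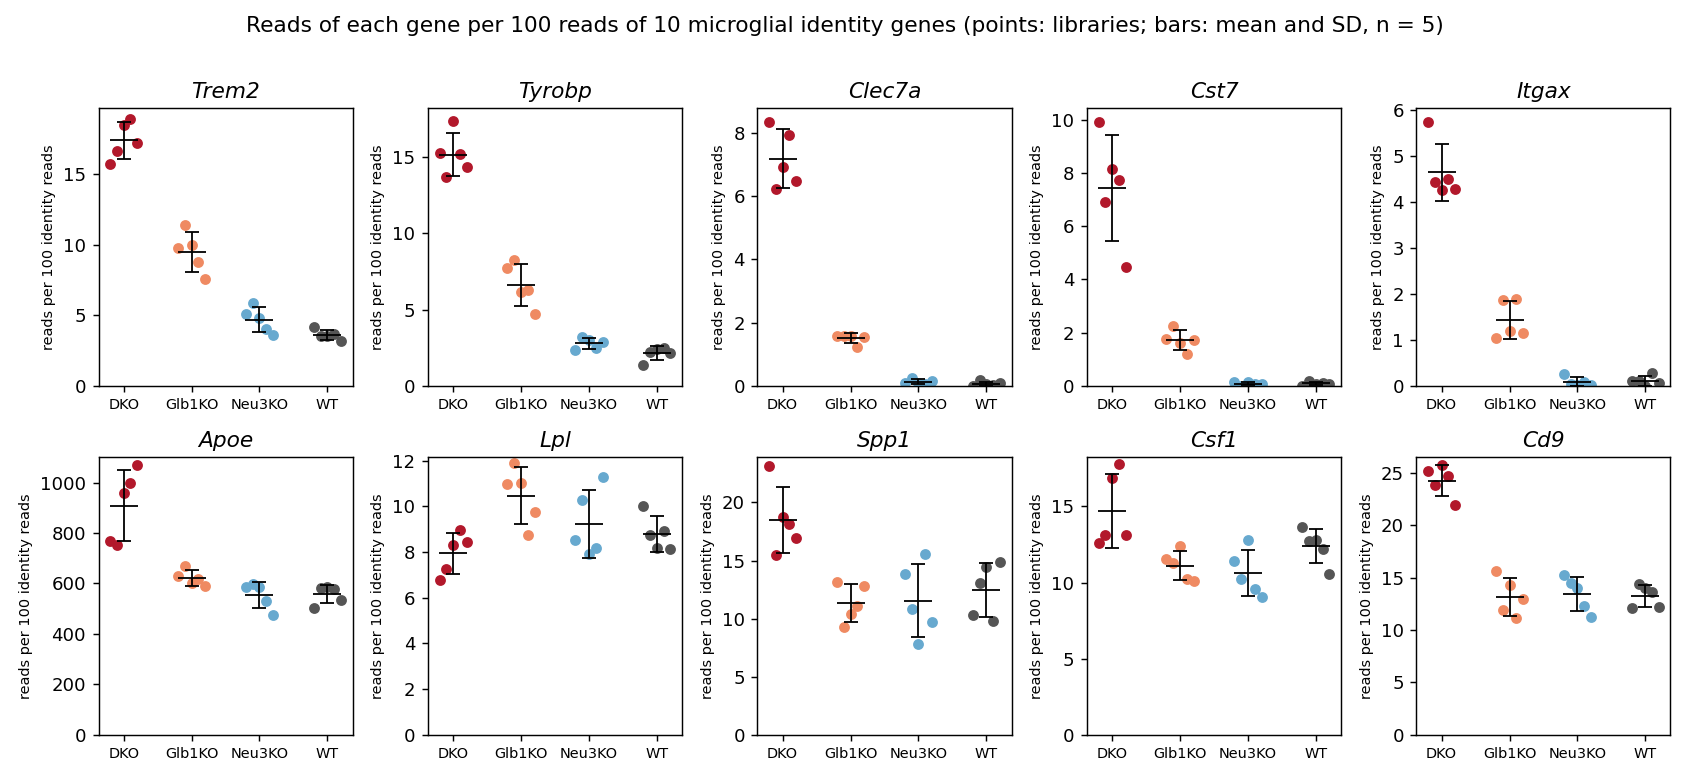
Reads of each gene as a percentage of the reads of the 10 microglial identity genes in the same library, for DKO, Glb1KO, Neu3KO and WT (points are libraries; bars are the mean and SD, n = 5; axes start at 0). Trem2 ran from 15.7% to 18.9% in DKO and from 3.19% to 4.17% in WT, while Lpl and Csf1 overlapped between DKO and WT.

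The signalling chain below Trem2 and Tyrobp was read from a list of 23 genes, of which 21 were tested. In DKO over WT 14 were higher and 1 was lower, with a median log2 fold change of 0.77. In Glb1KO over WT 5 were higher and none was lower, with a median of 0.18. The microglial identity genes had similar medians, 0.73 in DKO and 0.14 in Glb1KO. Whether the chain differed beyond those genes was not tested. For every list, the shares of all tested genes called were 14.0% higher and 15.1% lower in DKO, and 1.75% and 2.21% in Glb1KO. The phosphatases that restrain ITAM signals were higher in both, with Ptpn6 (SHP-1) at 2.17 (SE 0.16) and Inpp5d (SHIP1) at 1.19 (SE 0.09) in DKO, and at 0.76 and 0.53 in Glb1KO. Kinases and adaptors that carry the signal were higher too: Syk at 0.94, Lyn at 0.77, Btk at 1.74, Vav1 at 1.74, Lcp2 at 2.05, Blnk at 1.36 and the phospholipase Plcg2 at 1.58 (SE 0.14) in DKO. Of these Lcp2 (0.97), Blnk (0.75) and Plcg2 (0.51) passed the test in Glb1KO, and Syk (0.30), Lyn (0.26), Btk (0.62) and Vav1 (0.53) did not. Ms4a6d, a membrane protein of the Ms4a family, was at 3.32 in DKO and at 0.81 in Glb1KO, where it was not called.

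The rest of the chain was not called or differed by less. Grb2 (-0.08), Fyn (-0.07), Pik3cd (-0.05) and Card9 (0.44), the partner of Clec7a, were not called in DKO over WT, Pik3r1 was called at 0.30, and Vav3 was lower at -0.32 with TMM scaling but not called with library totals (-0.28, edgeR adjusted p = 0.066). Of the proteases that shed Trem2 from the surface, Adam17 was higher at 0.30 and Adam10 was not called at -0.08. Hcst, the adaptor DAP10, had too few reads to be tested, with 80 in DKO, 21 in Glb1KO, 18 in Neu3KO and 13 in WT.

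Other partners of Tyrobp were mostly too low to test, 4 of 12. Fcer1g, the ITAM adaptor of Fc receptors, was at 2.47 (SE 0.12, edgeR adjusted p = 2.07e-18) in DKO and 0.89 in Glb1KO over WT, and Cd300c2 at 2.31 and 1.06, all called. Clec5a was at 1.33 in DKO (called) and 0.35 in Glb1KO (not called). Siglech, a receptor of resting microglia that signals through Tyrobp, was at 0.17 in both and was not called in either. It was the exception among the 4.

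Receptors, ligands and inhibitor targets of the 10 genes numbered 24, of which 23 were tested. In DKO over WT 12 were higher and 7 were lower (15.1% of all tested genes were lower), with a median of 0.30, and in Glb1KO over WT 5 were higher and none was lower. A fit with the identifier letter added called 4 lower in DKO and 2 higher in Glb1KO. It called 18.3% and 1.72% of all tested genes in either direction. Scaling by library totals in place of TMM left 12 higher and 1 lower in DKO, against 28.3% of all tested genes in either direction. Itgb2, the partner chain of Itgax, was at 2.73 (SE 0.12) in DKO and 0.98 in Glb1KO. The targets of cystatin F were higher with it, as Ctsc stood at 1.76 and 0.83, Ctsh at 1.41 and 0.60, and legumain (Lgmn) at 0.86 in DKO, where Lgmn was not called in Glb1KO at 0.10. Cd44, the receptor of osteopontin, was at 2.72 (SE 0.13) in DKO and at 0.45 in Glb1KO, where it missed the threshold (edgeR adjusted p = 0.0507). The osteopontin-binding integrin chains Itgb3 (1.51) and Itgb5 (0.77) were higher in DKO, and Itgav (-0.12) was not called.

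Abca1, the pump that loads lipid onto Apoe, was higher in DKO (1.17) and in Glb1KO (0.30). Sorl1, a sorting receptor for lipoproteins, was lower in DKO (-0.29), also when scaled by library totals (-0.24, edgeR adjusted p = 0.00539). Abcg1 (-0.20), Vldlr (-0.21), Lrp8 (-0.20) and Sort1 (-0.15) were called lower with TMM scaling but not with library totals (-0.15, -0.16, -0.16 and -0.11; edgeR adjusted p = 0.0561, 0.0761, 0.102 and 0.0547). Lrp1 was not called at -0.02. Of the regulators of Lpl, Angptl4, its inhibitor, was at 1.05 in DKO (edgeR adjusted p = 0.0319), and Lmf1, which matures it, was not called at -0.01. For Csf1, the receptor Csf1r was at 0.63 and Il34, the other ligand of that receptor, was lower at -0.26 in DKO with TMM scaling and not called with library totals (-0.22, edgeR adjusted p = 0.0755). The partners of Cd9 differed in sign, with Cd81 higher at 0.30, Igsf8 lower at -0.16 with TMM scaling but not called with library totals (-0.12, edgeR adjusted p = 0.117), and Ptgfrn not called at 0.04.

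Among 31 other genes of disease-associated microglia, all tested, 29 were higher in DKO over WT, 18 were higher in Glb1KO and none was lower in either, with medians of 1.70 and 0.49. In a fit with the identifier letter added, 29 were higher in DKO and 12 in Glb1KO, against 18.3% and 1.72% of all tested genes in either direction. The earlier results of these data were known when this list was written. Cd68, a lysosomal glycoprotein of macrophages, was at 3.89 (SE 0.11) in DKO and 1.82 in Glb1KO, and Lgals3bp, a secreted galectin-binding protein, at 2.89 and 1.03. The cathepsins Ctsz and Ctsb were at 2.18 and 1.29 in DKO and at 0.80 and 0.32 in Glb1KO. Fth1, the ferritin heavy chain, was at 0.35 in DKO and was not called in Glb1KO at -0.17. Ank and Cadm1 were not called in DKO, at 0.00 and 0.03.

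Genes of resting microglia were called higher more often than lower. Of 16 tested homeostatic genes, 9 were higher and 1 was lower in DKO over WT, and 3 were higher and 1 was lower in Glb1KO, with medians of 0.40 and 0.14. Most of the identity genes above are also on this list, so these counts are not a separate observation. The gene called lower in DKO and the values of P2ry12, Tmem119 and Sall1 are not reported here. Mef2a was at 0.30 and Mef2c at 0.00 in DKO, the second not called.

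Markers of other cells moved with DKO as well. Border-associated macrophage genes were higher in 7 of 9 tested cases in DKO over WT and in 3 of 9 in Glb1KO, and they summed to between 55.0 and 68.8 CPM in DKO, 29.0 and 41.3 CPM in Glb1KO, 26.4 and 32.8 CPM in Neu3KO and 19.6 and 27.5 CPM in WT. Siglec1 was at 3.74, Ms4a7 at 4.54, Mrc1 at 1.68 and Stab1 at 1.16 in DKO. Monocyte and neutrophil genes summed to between 1.48 and 7.41 CPM in DKO, 0.759 and 4.10 CPM in Glb1KO, 0.954 and 2.37 CPM in Neu3KO and 0.790 and 1.76 CPM in WT, with 2 of 12 tested and both higher (S100a8 at 3.27 and S100a9 at 1.88). Of that list the defining markers stayed near 0, with Ccr2 at 30 reads in DKO, 14 in Glb1KO, 37 in Neu3KO and 37 in WT, and Ly6g at 2 reads in DKO and 0 in each of the other genotypes. The part of border macrophages in the levels of the 10 genes was not tested.

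Astrocytes are the main makers of Apoe in healthy brain. Of 9 astrocyte genes, 7 were higher and 1 was lower in DKO over WT, and none was called in Glb1KO over WT. Their summed level was 5795 to 6333 CPM in DKO, 4950 to 5355 CPM in Glb1KO, 4776 to 5373 CPM in Neu3KO and 4670 to 4878 CPM in WT. Aqp4 was at 1.60, Aldh1l1 at 0.79, Sox9 at 0.73 and Aldoc at 0.53 in DKO, and Slc1a2 was not called at -0.01. The part of astrocytes in these levels was not tested. All 10 mature oligodendrocyte genes were lower in DKO over WT and in Glb1KO over WT, with medians of -0.85 and -0.86. Of 5 dendritic cell genes 1 was lower and none was higher in DKO over WT, where 15.1% of all tested genes were lower. The 1 tested lymphocyte gene was not called.

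**Figure D5:**
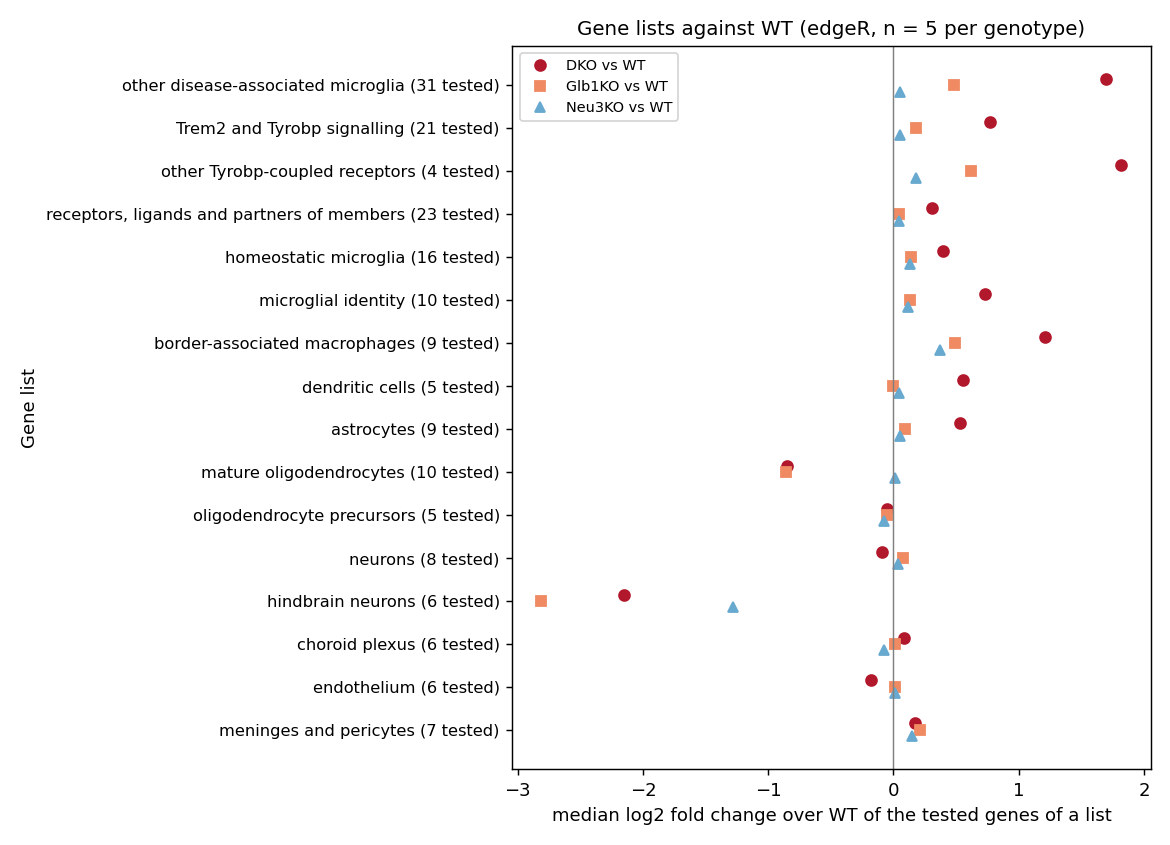
Median log2 fold change over WT of the tested genes of each list, for DKO (circles), Glb1KO (squares) and Neu3KO (triangles), from edgeR with n = 5 libraries per genotype. The other genes of disease-associated microglia were at 1.70 in DKO and 0.49 in Glb1KO, microglial identity genes at 0.73 and 0.14, and mature oligodendrocyte genes at -0.85 and -0.86.

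The genes most like Trem2, Tyrobp and Apoe were found by the smallest root mean square difference of log2 CPM less the WT mean over the 20 libraries, among 15946 other genes with a mean of at least 1 CPM. For Trem2 they were the complement genes C1qc (0.21) and C1qa (0.26) and the macrophage receptor Adgre1 (0.27). For Tyrobp they were Mpeg1 (0.31), Cd68 (0.34) and C1qc (0.43). For Apoe they were Ctsb (0.11), Scrg1 (0.14) and Prdx6 (0.14). Among the 10 genes themselves, Apoe and Cd9 were closest (0.21). This measure is a description over libraries that share genotypes.

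In the authors' deposited table of DKO against WT, which their own fit gave, all 10 genes were higher with an adjusted p under 0.05. The log2 fold changes there were within 0.07 of those given here.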

How the data were processed

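The authors deposited raw gene-level counts for every library, the matching FPKM values, and a table of log2 fold changes and p-values for DKO against WT, as described per the file headers. The submitters' processing notes name fastp, HISAT2 2.0.5, featureCounts 1.5.0-p3, DESeq2 1.20.0, mm10 and GRCm38. The strand setting is not given in the sources used here, so reads of a gene and its antisense partner cannot be told apart. Counts of all 20 libraries entered 1 fit with a mean per genotype (R 4.3.3, edgeR 4.0.16, limma 3.58.1), with TMM scaling, edgeR's filterByExpr and its robust quasi-likelihood F test, Benjamini-Hochberg adjustment over 18336 genes and a threshold of 0.05. SE values come from the F statistic. Scripts were tested on simulated counts. Alternatives were DESeq2 1.42.0, other scalings and filters, a fold minimum of 1.5, a fit of only the 2 groups compared, a term for replicate number or for identifier letter, libraries of 1 letter, and each library left out. The W-only fit was added after the data were seen. No sample columns were left without a library. No pair of replicates was a duplicate: the chi-square per degree of freedom between their counts was at least 3.44.

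The 10 genes, the gene lists and the tests were chosen with earlier results of these data known. All 10 are named; from each list the rule took up to 4 genes with the smallest adjusted p in DKO over WT, up to 2 with the highest CPM, and direct partners of the 10 genes. Lyn, Btk, Vav1, Vav3, Lcp2, Blnk, Fyn, Pik3cd, Ank and Cadm1 fall outside it and were named after their values were seen, as were defining markers of other cells with few reads. Some genes of the lists are not reported by name here.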

Additional observations from a re-analysis of the deposited data

Results flagged for a closer look

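In 40 groups of 5 libraries (10 genes in 4 genotypes), Dixon's test (critical value 0.71) marked 3 single libraries, where chance marks about 1 in 20 groups. Tyrobp was lowest in WT replicate 1 at 2.53 CPM, and Apoe was lowest in the same library at 942 CPM, each far below the other 4 WT libraries. Clec7a was highest in DKO replicate 1 at 28.5 CPM, above the other 4 DKO libraries.

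The change that went with the Neu3 knockout differed between libraries with and without the Glb1 knockout for 7 genes, by the edgeR interaction test. Of all tested genes, 3.96% were called higher in it. On the log2 scale the difference was 0.91 for Trem2, 1.24 for Tyrobp, 0.98 for Apoe, 2.70 for Cst7, 1.26 for Spp1, 1.03 for Csf1 and 1.29 for Cd9. The Cst7 call was lost in 6 of 20 fits that left out a library. The Spp1 call was lost with the letter term (edgeR adjusted p = 0.0509), and 3 of the 10 genes were called with a fold minimum of 1.5.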

How the results depend on the processing

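The number of the 10 genes called higher was within 1.5 times its value in 58 of 60 fits other than those leaving out a library. It was 1 in Neu3KO over WT without a filter on low counts (Trem2), and 3 for the interaction with a fold minimum of 1.5. Leaving out each library in turn gave 10 to 10 in DKO over WT, 5 to 6 in Glb1KO over WT, 0 to 0 in Neu3KO over WT, 9 to 9 in DKO over Glb1KO, 9 to 10 in DKO over Neu3KO and 6 to 8 for the interaction. In that order, the shares of all tested genes called in either direction ran from 23.9% to 28.8%, 2.96% to 4.42% and 0% to 0.00538%. For the last 3 they ran from 12.4% to 16.2%, 20.4% to 25.1% and 5.28% to 7.11%. Same-numbered libraries did not deviate together (25 pairs, r from -0.129 to 0.0646, none over 0.1, and 4 closest to their own number), and with the replicate number as a block the counts stayed 10, 6, 0, 9, 10 and 7. With that block, 28.4%, 3.74%, 0%, 15.1%, 24.3% and 6.2% of all tested genes were called in either direction. Over all tested genes, the calls in DKO over WT numbered 5323, against 3363 with the identifier letter as a term, 2583 among libraries with E and 564 with the fold minimum, and those in Glb1KO over WT 726, against 315, 323 and 57. In DKO over Glb1KO they numbered 2879, against 1203, 901 and 270, and in DKO over Neu3KO 4606, against 882 among E libraries and 506 with the fold minimum. The interaction had 1255 calls, against 183 and 132. Neu3KO over WT had 0, against 26 without the filter, 3 in the compared groups alone, 2 with DESeq2 and 1 among E libraries. With library totals in place of TMM, 3112 of 5180 calls in DKO over WT were higher, against 2558 of 5323, as were 1807 of 2824 in DKO over Glb1KO, against 1542 of 2879, 2807 of 4458 in DKO over Neu3KO, against 2263 of 4606, and 854 of 1210 in the interaction, against 727 of 1255.

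With the letter term, 5 values not called in either fit changed sign: Spp1 was at 0.073 in Glb1KO over WT, and in Neu3KO over WT Apoe was at -0.058, Cst7 at 0.31, Itgax at 0.32 and Spp1 at 0.15. Lpl changed sign in the interaction, at 0.11. Among E libraries Spp1 was at 0.075 in Glb1KO over WT, and in Neu3KO over WT Lpl was at -0.090, Cst7 at 0.53, Itgax at 1.18 and Spp1 at 0.093, with the Lpl interaction at 0.29. Against the homeostatic list the ratio of Lpl was 0.034 in DKO over WT and 0.024 in DKO over Neu3KO, and that of Cd9 was -0.035 in Neu3KO over WT. Without single libraries, uncalled values spanned 0: in Neu3KO over WT Apoe ran from -0.011 to 0.086, Cst7 from -0.41 to 0.33, Itgax from -1.09 to 0.58 and Spp1 from -0.18 to 0.053, Spp1 in Glb1KO over WT from -0.13 to 0.052, and the Lpl interaction from -0.13 to 0.048. The ratios did so for Apoe (-0.049 to 0.042), Lpl (-0.016 to 0.11), Cst7 (-0.78 to 0.51), Itgax (-0.77 to 0.34) and Cd9 (-0.032 to 0.078) in Neu3KO over WT, and for Cd9 in Glb1KO over WT (-0.079 to 0.043). Calls lost with the letter term included Spp1 in the interaction (edgeR adjusted p = 0.0509) and Lpl in Glb1KO over WT (0.653). Cst7 in the interaction was still called with that term (2.81, edgeR adjusted p = 0.0152). Among E libraries, with 1 Neu3KO library, the interaction was 1.19 for Spp1 and 2.59 for Cst7. DKO over Neu3KO was 1.26 for Spp1 and 0.51 for Lpl among E libraries. With the fold minimum, the 3 Lpl calls and the Trem2, Tyrobp, Cst7 and Spp1 interactions were lost. The Itgax and Clec7a interactions were gained with DESeq2 and without the filter, which each called 9 of 10. The cause was not tested. In DKO over WT the counts of the other disease-associated microglia genes ran from 24 to 29, and in Glb1KO over WT from 6 to 20. Depth limits the values of Clec7a, Cst7 and Itgax in Neu3KO and WT, which rest on 13 to 27 reads per genotype. The ratio of Csf1 in DKO over Neu3KO was not called without Neu3KO replicate 2 (0.45) or 4 (0.43), where the adjustment covered fewer tests than in the main result.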
